A study of Mus musculus with 6 samples.

Results

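The genes described here are 8 transcription factor genes of cortical and hippocampal neurons, taken by symbol from the count files: Neurod6, Neurod2, Neurod1, Tbr1, Satb1, Fezf2, Bcl11a and Bcl11b. They are 8 of 32531 named genes, and each had 1 row in every library. The tissue was labelled thalamus, from mice labelled adult and untreated, while the names of the deposited count tables give the parafascicular nucleus, a nucleus of the thalamus. Which of these was dissected cannot be told from them. The mouse line, NIDA030 (Cbln1-EGFP/Rpl10a), carries a ribosomal protein tagged with green fluorescent protein. The 3 IP libraries hold the RNA pulled down with the tagged ribosomes by antibodies against that tag, and the 3 Input libraries are the samples labelled input from the same line. All 6 libraries come from the tagged line, no untagged animals are among them, and IP and Input share the molecule label of ribosome-bound RNA. The labels do not list which thalamic cells carry the tag, give no sex or exact age, and do not say whether replicates are separate animals or pools, so a p-value here covers the spread of these libraries, which may be technical.

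Identity regulators are transcription factors that fix and keep the type of a neuron. In the developing pallium, the source of cortex and hippocampus, NeuroD factors push newborn excitatory neurons to mature, and Tbr1, Fezf2, Bcl11b, Bcl11a and Satb1 then divide them into layers and projection classes. Most excitatory neurons of the adult thalamus arise outside the pallium and are known for another set of regulators, such as Tcf7l2 and Gbx2. Several of the genes are also used elsewhere: Bcl11b in striatal projection neurons and T cells, Bcl11a in B cells, Satb1 in cortical interneurons and T cells, and Neurod1 in cerebellar granule cells, the pineal gland and the retina.

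Assigned counts ran from 45256700 to 57385828 in IP and from 23929070 to 47741219 in Input. Cbln1, the gene the line is named for, checked the pull-down: it was 17.9-fold higher in IP (edgeR quasi-likelihood test, adjusted p = 9.66e-08). Its level was 1428 ± 67.8 CPM in IP, against 79.8 ± 9.64 CPM in Input. Levels are given as CPM, counts scaled to a common library size with TMM factors, and errors are SD over 3 libraries. Slc17a6, the vesicular glutamate transporter of thalamic relay neurons, was 2.08-fold higher in IP (adjusted p = 2.09e-04). The 12 astrocyte and 12 oligodendrocyte markers tested were all called lower in IP, as were 24.3% of all genes tested. Same-numbered IP and Input libraries were run in the same sequencing lane, so the ratio within a replicate number is also a within-lane ratio.

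The promoters of Neurod6 and Neurod2, whose counts in IP ran opposite to each other in 1 library, and of the Bcl11 pair, called in opposite directions, are shown first. NeuroD proteins are basic helix-loop-helix (bHLH) factors that bind E-boxes, so every E-box, spelled CANNTG, is in capitals. The sequences are from RefSeq (GRCm38.p6), 5′ to 3′ on the gene's strand, from 250 bases before to 50 bases after the annotated start. Neurod6 lies at chr6:55681214-55681513, Neurod2 at chr11:98329596-98329895, Bcl11a at chr11:24080445-24080744 and Bcl11b at chr12:108003365-108003664, with Bcl11a on the plus strand and the other three on the minus strand.
Neurod6: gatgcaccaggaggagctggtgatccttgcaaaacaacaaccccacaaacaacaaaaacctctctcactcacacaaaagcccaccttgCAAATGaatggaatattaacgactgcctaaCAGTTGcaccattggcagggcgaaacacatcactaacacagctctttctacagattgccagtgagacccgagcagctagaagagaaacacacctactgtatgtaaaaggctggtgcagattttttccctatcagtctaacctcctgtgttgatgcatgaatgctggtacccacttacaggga
Neurod2: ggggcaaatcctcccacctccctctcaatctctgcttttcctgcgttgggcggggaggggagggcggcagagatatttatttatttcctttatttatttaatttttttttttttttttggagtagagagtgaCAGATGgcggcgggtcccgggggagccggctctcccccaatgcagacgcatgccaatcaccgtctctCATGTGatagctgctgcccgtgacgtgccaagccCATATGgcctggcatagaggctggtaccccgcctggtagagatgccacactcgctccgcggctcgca
Bcl11a: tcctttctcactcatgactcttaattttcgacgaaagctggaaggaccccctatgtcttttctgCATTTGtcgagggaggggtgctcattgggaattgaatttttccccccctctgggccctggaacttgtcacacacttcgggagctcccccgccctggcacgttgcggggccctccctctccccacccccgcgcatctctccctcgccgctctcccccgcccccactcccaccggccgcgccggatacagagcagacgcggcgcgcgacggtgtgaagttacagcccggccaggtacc
Bcl11b: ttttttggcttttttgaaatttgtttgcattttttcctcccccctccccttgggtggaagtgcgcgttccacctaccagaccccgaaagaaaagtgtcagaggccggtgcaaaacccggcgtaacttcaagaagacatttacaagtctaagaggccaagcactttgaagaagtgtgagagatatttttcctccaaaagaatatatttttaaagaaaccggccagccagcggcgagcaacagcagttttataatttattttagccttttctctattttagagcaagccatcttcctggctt

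CANNTG reads the same way on both strands as a pattern, so each match counts once, and overlapping matches were allowed. The Neurod2 window holds 3 E-boxes, that of Neurod6 holds 2, that of Bcl11a holds 1 and that of Bcl11b none. Of 32817 promoter windows of this length in the table, 72.3% hold at least 1 CANNTG, 39.7% at least 2 and 17.6% at least 3. One E-box of Neurod2 is CAGATG, a form NeuroD proteins are known to bind. CAGATG or its reverse complement CATCTG occurs in 17.2% of all windows, and among the 8 genes only in that of Neurod2. These are letter matches only.

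Of the 8 genes, 7 had enough counts to be tested, and the group split. Bcl11a rose in IP, Neurod2, Tbr1 and Bcl11b fell, and Neurod6, Neurod1 and Satb1 did not pass the test. Fezf2 had too few counts for the test. The edgeR quasi-likelihood test with Benjamini-Hochberg adjustment over all 16898 genes tested was read at a threshold of 0.05. The 3 lower and 1 higher calls stand beside 24.3% of all tested genes called lower and 23.3% called higher, so calls in both directions were common in this comparison. All IP libraries lay below all Input libraries for 4 of the 7 genes (33.7% of all tested genes) and above them for 1 (27.9% of all tested genes). Fitted log2 fold changes of the 7 ran from -3.37 to 1.71 with a median of -2.03, against a median of -0.07 over all genes tested. In bulk libraries, fewer cells of a type and less of the RNA per cell cannot be told apart.

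**Figure D1:**
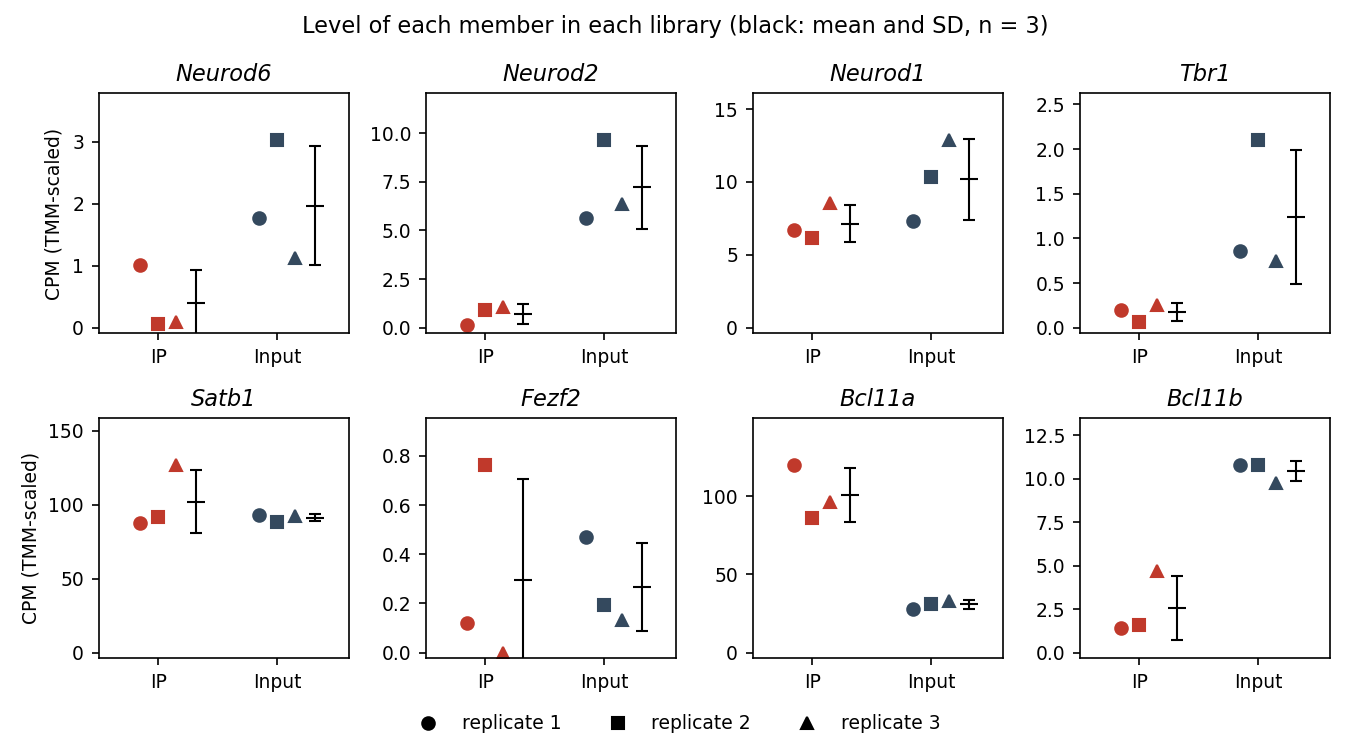
TMM-scaled CPM (y axis, linear, a scale of its own in each panel) of each of the 8 genes in the IP and Input libraries; shapes give the replicate number, and black bars the mean and SD of 3 libraries (a bar that would pass below 0 is cut). Bcl11a sits at 86.0 to 120 CPM in IP and 27.9 to 33.2 CPM in Input, while Neurod2, Tbr1 and Bcl11b sit lower in IP.

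Neurod2, a NeuroD factor of postmitotic cortical and hippocampal neurons that also acts on synapse maturation, fell in IP. It had 6, 41 and 46 counts in IP replicates 1 to 3, against 144, 500 and 332 counts in Input replicates 1 to 3. That is 0.120, 0.893 and 1.08 CPM in IP and 5.64, 9.62 and 6.35 CPM in Input. The highest IP library lay below the lowest Input library. The fitted level was 10.4-fold lower in IP (log2 fold change -3.37, 95% interval -4.88 to -1.86, SE 0.67, adjusted p = 0.00297). Within the lanes the log2 ratios were -5.55, -3.43 and -2.55. The call held in all 17 alternative settings (adjusted p 3.07e-07 to 0.0334).

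Neurod6, a factor of hippocampal and cortical pyramidal neurons, was low in IP except in 1 library. Its counts were 51, 3 and 4 in IP replicates 1 to 3, against 45, 157 and 59 in Input replicates 1 to 3. In CPM this is 1.02, 0.0654 and 0.0941 in IP and 1.76, 3.02 and 1.13 in Input. IP replicate 1 came close to Input replicate 3, though the groups did not overlap, and the gene was not called (log2 fold change -2.31, 95% interval -4.66 to 0.05, adjusted p = 0.0976). Without IP replicate 1 it was called lower (log2 fold change -4.57, adjusted p = 0.00166), and so it was in the blocked fit, with replicate numbers as a term (-3.18, adjusted p = 0.0493). Over all alternatives the adjusted p ran from 0.00166 to 0.409.

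The same IP library that held most Neurod6 held least Neurod2. That library, IP replicate 1, also stood furthest from the other IP libraries across genes. Its chi-square per degree of freedom was 134 and 93.1 against IP replicates 2 and 3, and 42.1 between those. The part of this in the Neurod6 and Neurod2 values was not tested. Within IP replicate 1 there were 7.92 Neurod6 counts for each Neurod2 count, while in IP replicates 2 and 3 there were 0.0843 and 0.0968 and in the 3 Input libraries 0.315, 0.315 and 0.179 (0.5 added to each count). The other two IP libraries thus lay below all Input libraries and IP replicate 1 above them. Over the groups the log2 ratio of Neurod6 to Neurod2 averaged -1.32 ± 3.73 in IP, against -1.94 ± 0.47 in Input (exact two-sided permutation p = 1), and without IP replicate 1 the difference changed sign.

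Neurod1, which drives survival of dentate granule neurons and is also used in pineal and cerebellar granule cells, had a higher level per kilobase of exon in every IP library than the other NeuroD genes. It had 334, 282 and 365 counts in IP and 187, 538 and 672 counts in Input. Its levels of 6.68, 6.14 and 8.59 CPM in IP overlapped the 7.32, 10.4 and 12.9 CPM of Input. The fitted difference did not pass (log2 fold change -0.52, 95% interval -1.11 to 0.07, adjusted p = 0.135), and the interval reaches from 2.15-fold lower to 1.05-fold higher. With library totals in place of TMM the gene was called lower (-0.76, adjusted p = 0.0472). Neurod1 shares 355 exonic bases with its overlapping neighbours Cerkl and Gm26755. Of these only Cerkl is in the files, with 1 to 6 counts in IP and 7 to 54 in Input.

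Relative to Neurod2, Neurod1 was therefore higher in every IP library than in any Input library. Neurod1 had 51.5, 6.81 and 7.86 counts for each Neurod2 count in IP replicates 1 to 3, against 1.30, 1.08 and 2.02 in Input replicates 1 to 3. The log2 ratio was 3.31 higher in IP (exact permutation p = 0.1, the smallest that 3 against 3 libraries allow, and 0.2 after adjustment over the 8 pairs). Without IP replicate 1 the log2 difference was 2.37. A ratio within a library does not depend on how library sizes are scaled.

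Tbr1, a T-box factor that defines corticothalamic neurons of the deepest cortical layer, was rare in all libraries. It had 10, 3 and 11 counts in IP and 22, 109 and 39 counts in Input, which is 0.200, 0.0654 and 0.259 CPM in IP and 0.862, 2.10 and 0.746 CPM in Input. The groups did not overlap, and Input replicate 2 stood above the other two. The gene was called 7.0-fold lower in IP (log2 fold change -2.81, 95% interval -4.80 to -0.82, SE 0.88, adjusted p = 0.0263). The call was lost with the replicate block (-2.73, adjusted p = 0.102) and without Input replicate 1, 2 or 3 (adjusted p = 0.0632, 0.166 and 0.0607), where the log2 fold change was -3.00, -2.17 and -3.06. Counts this low leave the size of the difference wide.

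Fezf2, a zinc finger factor of subcortically projecting layer neurons, was close to the detection limit. It had 6, 35 and 0 counts in IP replicates 1 to 3 and 12, 10 and 7 counts in Input replicates 1 to 3. Most of the 41 IP counts came from replicate 2 (0.763 CPM), and the 0 of IP replicate 3 allows up to 3 counts. The Input libraries had 0.470, 0.192 and 0.134 CPM, between the lowest and the highest IP library. In a fit with no filter on low counts the difference was not called (log2 fold change 0.20, adjusted p = 0.917).

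Satb1, a chromatin organiser of interneurons, deep-layer cortical neurons and T cells, was abundant in both kinds of library. It had 87.6, 91.8 and 127 CPM in IP, against 92.7, 88.2 and 92.4 CPM in Input. IP replicate 3 lay above all other libraries, which lay between 87.6 and 92.7 CPM. The difference did not pass (log2 fold change 0.16, 95% interval -0.15 to 0.48, adjusted p = 0.363), so the interval covers levels from 1.11-fold lower to 1.39-fold higher in IP. The sign of this small value turned under other scalings (-0.01 with upper-quartile factors, -0.07 with library totals) and without IP replicate 3 (-0.01). Upper-quartile factors and library totals moved the median of all genes by -0.18 and -0.24, and against that median Satb1 stood at 0.23, 0.23 and 0.24 under TMM, upper-quartile factors and library totals.

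Bcl11a and Bcl11b, paralogous zinc finger proteins that join the BAF chromatin remodelling complex, went opposite ways. Bcl11a, which shapes deep-layer and sensory cortical neurons, had 5989, 3947 and 4085 counts in IP replicates 1 to 3, against 712, 1624 and 1736 in Input replicates 1 to 3. In CPM this is 120, 86.0 and 96.1 in IP, and 27.9, 31.3 and 33.2 in Input. Every IP library was far above every Input library. The gene was 3.27-fold higher in IP (log2 fold change 1.71, 95% interval 1.39 to 2.03, SE 0.14, adjusted p = 2.17e-05). The call held in all 17 alternatives, with log2 fold changes of 1.46 to 1.83.

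Bcl11b, a factor of corticospinal, hippocampal and striatal projection neurons, was lower in each IP library than in any Input library. It had 70, 73 and 200 counts in IP, against 275, 560 and 510 in Input, or 1.40, 1.59 and 4.70 CPM in IP against 10.8, 10.8 and 9.76 CPM in Input. IP replicate 3 stood above the other two IP libraries, and the Input libraries lay close together. The fold change was 4.08-fold lower in IP (log2 fold change -2.03, 95% interval -3.04 to -1.02, adjusted p = 0.00502). Without IP replicate 3 the log2 fold change was -2.79 (adjusted p = 1.80e-04). The call held in all 17 alternatives (adjusted p 2.74e-05 to 0.0488).

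**Figure D2:**
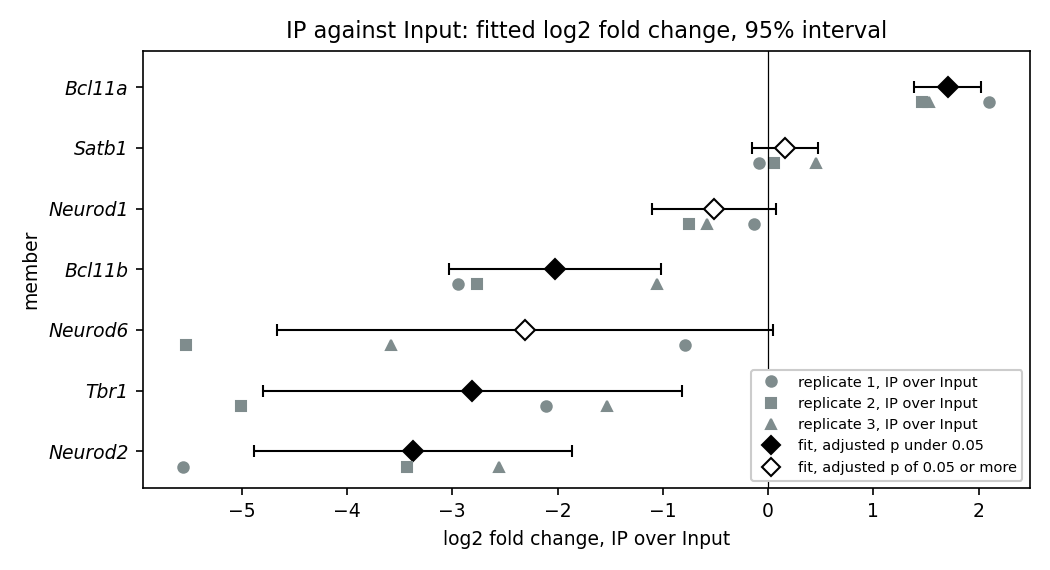
Fitted log2 fold change of IP over Input (x axis) with its 95% interval for the 7 genes tested; filled diamonds have an adjusted p under 0.05, and grey shapes are the log2 ratios of CPM within each replicate number, drawn under each gene. Neurod6 spreads from -5.53 to -0.79 over the replicates, while Bcl11a lies between 1.46 and 2.10.

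The ratio of the paralogues separated the groups in every library. For each Bcl11b count there were 85.0, 53.7 and 20.4 Bcl11a counts in IP replicates 1 to 3, against 2.59, 2.90 and 3.40 in Input replicates 1 to 3. The log2 ratio of Bcl11b to Bcl11a was 3.94 lower in IP (-5.50 ± 1.05 in IP, against -1.56 ± 0.20 in Input; exact permutation p = 0.1, the smallest possible, adjusted p = 0.2). Satb1 counts were 0.731, 1.07 and 1.32 for each Bcl11a count in IP and 3.32, 2.82 and 2.78 in Input. This ratio did not overlap between groups (log2 difference -1.55, exact permutation p = 0.1).

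Tbr1 was also lower relative to Satb1 in every IP library. There were 417, 1204 and 468 Satb1 counts for each Tbr1 count in IP replicates 1 to 3, against 105, 41.9 and 122 in Input replicates 1 to 3 (log2 difference of Tbr1 over Satb1 -2.92, exact permutation p = 0.1). The ratio of Neurod6 to Neurod1 was 2.69 lower on the log2 scale (exact permutation p = 0.2). The groups overlapped through IP replicate 1 alone, at -2.70, while IP replicates 2 and 3 were at -6.33 and -6.34 and the Input libraries between -3.50 and -1.77. Without IP replicate 1 the log2 difference was -3.90. Ratios to Fezf2 rest on its few counts: Tbr1 over Fezf2 differed by -1.58 (exact permutation p = 0.6) and Bcl11b over Fezf2 by -1.05 (exact permutation p = 0.7). In all, 8 pairs were compared and none had an adjusted p under 0.2.

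**Figure D3:**
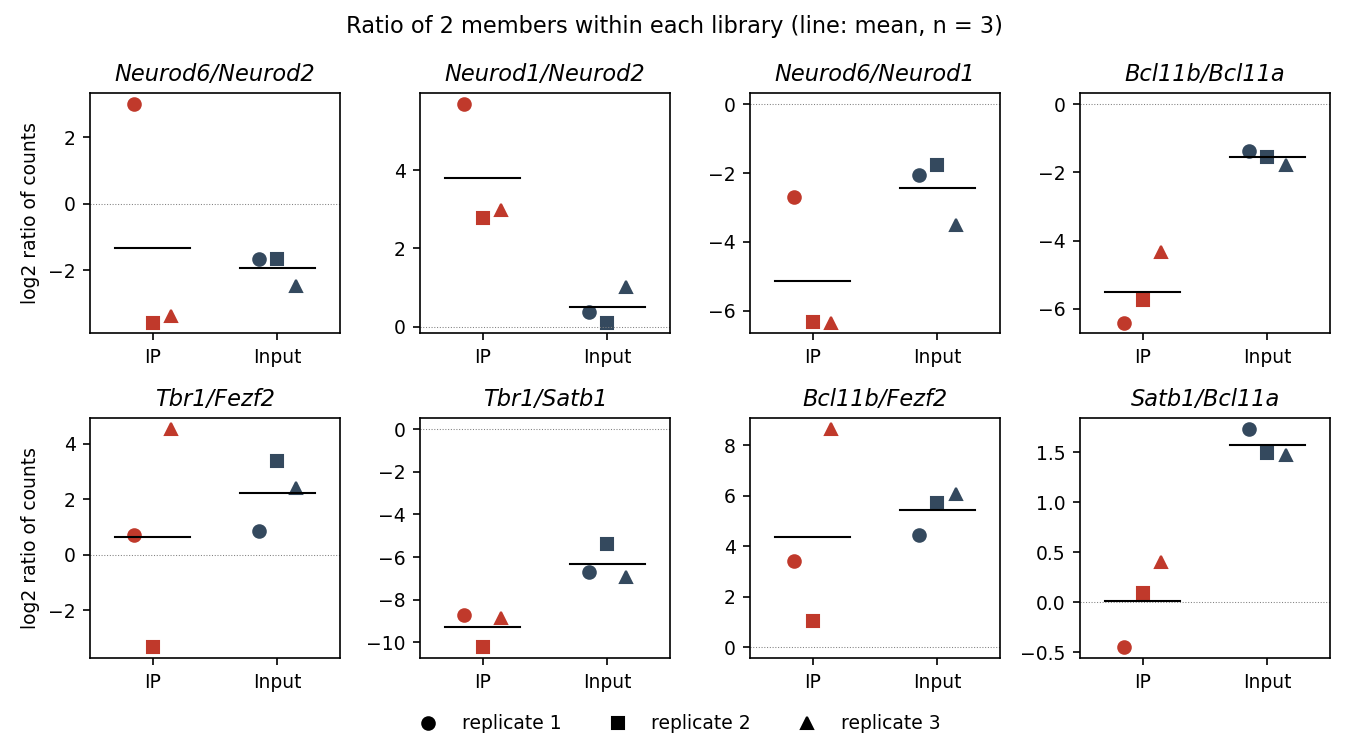
Log2 ratio of the counts of 2 genes within each library (y axis, a scale of its own in each panel, 0.5 added to each count) for IP and Input; lines are means of 3 libraries and the dotted line marks equal counts. The Bcl11b to Bcl11a ratio lies between -6.41 and -4.35 in IP and between -1.77 and -1.37 in Input, and the Neurod6 to Neurod2 ratio of IP replicate 1 lies at 2.99, apart from the rest.

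Set against each other per kilobase of merged exons, the levels of the 8 genes spanned 240-fold in IP and 55.0-fold in Input. In IP the order of mean level was Bcl11a (7.64 ± 1.32 CPM per kb), Satb1 (5.36 ± 1.13), Neurod1 (2.62 ± 0.47), Bcl11b (0.316 ± 0.229), Neurod2 (0.222 ± 0.162), Neurod6 (0.183 ± 0.253), Fezf2 (0.0966 ± 0.135) and Tbr1 (0.0318 ± 0.0181). Bcl11a and Satb1 overlapped, Satb1 and Neurod1 did not, Neurod1 and Bcl11b did not, and each gene from Bcl11b down overlapped the next. In IP 3 genes thus had levels of 2.25 CPM per kb or more in every library and the others reached at most 0.580 in any library.

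In Input the order was led by Satb1 (4.79 ± 0.131 CPM per kb) and Neurod1 (3.73 ± 1.02), whose libraries overlapped. Bcl11a (2.34 ± 0.205) and Neurod2 (2.29 ± 0.676) followed, overlapping each other. Neurod2 also overlapped Neurod1, with a highest library of 3.06 against a lowest Neurod1 library of 2.68 CPM per kb. Below them came Bcl11b (1.29 ± 0.0725) and Neurod6 (0.917 ± 0.448), which overlapped, and then Tbr1 (0.225 ± 0.137) and Fezf2 (0.0871 ± 0.0589), which overlapped too. Bcl11a and Neurod2 had near-equal levels in Input, whereas in IP Bcl11a was at 7.64 and Neurod2 at 0.222 CPM per kb. Exon lengths are from GENCODE M21 and count all isoforms, which spreads the reads of Satb1 (19027 bases) and Bcl11a (13175 bases) over more sequence than any 1 transcript.

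Input replicate 2 had the highest Neurod6, Neurod2 and Tbr1 of all libraries. The summed level of 28 other regulators of cortical and hippocampal neurons was 2317.4, 1890.4 and 2047.5 CPM in IP replicates 1 to 3, against 1524.5, 1587.9 and 1526.5 CPM in Input replicates 1 to 3. A second sum took 28 effector genes of these neurons, such as kinases, secreted factors and structural proteins. It was 1228.5, 1222 and 1228.5 CPM in IP and 928, 1076 and 989 CPM in Input. The first sum included Foxp1, at 736, 594 and 595 CPM in IP and 123, 147.5 and 141 CPM in Input. The second was mostly Camk2a, at 842, 842 and 865 CPM in IP and 533, 658 and 574 CPM in Input. Both sums were thus higher in Input replicate 2 than in the other two Input libraries, but single members differed. The homeobox gene Emx2 was highest in Input replicate 1 (3.21, 1.81 and 1.11 CPM in the 3 Input libraries), and the effector gene Rspo1 in Input replicate 3 (5.95, 5.76 and 8.23 CPM). Emx2 was picked after its values were seen, and the part of such genes in the member values was not tested. Without Input replicate 2 the log2 fold change was -3.09 for Neurod2 and -1.99 for Bcl11b, both still called (adjusted p = 0.0190 and 0.0208).

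Other regulators of cortical and hippocampal neurons split in the same comparison. Of 28 listed, 25 were tested, 10 fell and 8 rose in IP, with a median log2 fold change of -0.22. Over all tested genes 24.3% were called lower and 23.3% higher. Lhx2, a LIM homeobox factor used in cortex and thalamus, rose (113 ± 6.26 CPM in IP and 23.0 ± 4.58 CPM in Input, log2 fold change 2.30, adjusted p = 5.78e-06), as did the forkhead factor Foxp1 (642 ± 82.0 CPM in IP and 137 ± 12.6 CPM in Input, log2 fold change 2.22). The LIM-only gene Lmo3 fell (3.99 ± 0.851 CPM in IP and 52.2 ± 8.42 CPM in Input, log2 fold change -3.70), and so did the POU factor Pou3f1 (0.789 ± 0.524 CPM in IP and 6.48 ± 0.400 CPM in Input, log2 fold change -3.04).

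Effector genes of cortical and hippocampal neurons were called in both directions too. Of 28 listed, 25 were tested, 6 fell, 5 rose and 14 were not called (median -0.26). These counts were close to the shares over all tested genes, 24.3% lower and 23.3% higher. The kinase gene Camk2a rose (850 ± 13.1 CPM in IP and 588 ± 63.4 CPM in Input, log2 fold change 0.53, adjusted p = 0.00104), and Lamp5, a lysosome-associated membrane protein of some cortical neurons, rose (7.43 ± 3.86 CPM in IP and 3.06 ± 0.163 CPM in Input, adjusted p = 0.0210). Krt12 (log2 fold change -1.71) and the Wnt agonist Rspo1 (-1.66) fell. The 5 higher calls were 2 without Input replicate 1 or 3, 2 with library totals, 3 with upper-quartile factors, 3 without replicate 2 and 1 without replicate 3. The 6 lower calls were 10 without IP replicate 2.

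Relatives and partners of the NeuroD factors were lower more often than higher. Of 23 bHLH genes and their inhibitors, 18 were tested, 9 fell, 1 rose and 8 were not called (median -0.94). The shares over all tested genes were 24.3% lower and 23.3% higher. The dimer inhibitors Id2 (3.43 ± 0.361 CPM in IP and 24.2 ± 2.26 CPM in Input, log2 fold change -2.82, adjusted p = 6.38e-06) and Id1 (-3.02, adjusted p = 0.0411) fell. The E proteins that pair with NeuroD factors were also measured: Tcf4 fell (log2 fold change -1.37) and Tcf12 fell (-1.12), while Tcf3 was not called (-0.18, adjusted p = 0.542). These 3 were named after their values were seen. The clock-linked repressor Bhlhe41 rose (165 ± 22.7 CPM in IP and 121 ± 11.8 CPM in Input, log2 fold change 0.45, adjusted p = 0.0126), but no gene of the list was called higher with upper-quartile factors, with library totals, without Input replicate 1 or without replicate 3.

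Subunits of the BAF complex, which Bcl11a and Bcl11b join, were higher more often than lower. Of 23 tested, 11 rose, 1 fell and 11 were not called (median 0.33), beside 23.3% of all tested genes called higher and 24.3% lower. Bcl7b (49.6 ± 8.10 CPM in IP and 26.0 ± 0.680 CPM in Input, log2 fold change 0.93, adjusted p = 7.05e-04) and the neuronal actin-like subunit Actl6b (25.9 ± 6.42 CPM in IP and 13.9 ± 1.28 CPM in Input, log2 fold change 0.90, adjusted p = 0.00577) rose. Ss18, used mainly in dividing progenitors, fell (4.92 ± 1.52 CPM in IP and 12.4 ± 1.38 CPM in Input, log2 fold change -1.34, adjusted p = 0.00352). The count of 11 was 7 with upper-quartile factors, 6 with library totals and 7 without replicate 3.

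Corepressor and related genes, mostly of the NuRD, HDAC and Groucho type, which act with several of the factors, moved both ways. The list also holds the Ctbp genes, Rcor1, Kdm1a and Cask. Of 23 tested, 5 fell, 6 rose and 12 were not called (median 0.14). Over all tested genes the shares were similar, with 24.3% called lower and 23.3% higher. Tle1 rose (83.7 ± 15 CPM in IP and 30.0 ± 2.24 CPM in Input, log2 fold change 1.48, adjusted p = 4.90e-05) and Ctbp1 rose (log2 fold change 1.04). The relatives Tle2 (log2 fold change -2.70) and Tle3 (10.8 ± 1.45 CPM in IP and 29.5 ± 1.09 CPM in Input, log2 fold change -1.46, adjusted p = 9.12e-05) fell. The 5 lower calls were 3 without Input replicate 2 or 3 or replicate 2, and 2 without replicate 3.

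**Figure D4:**
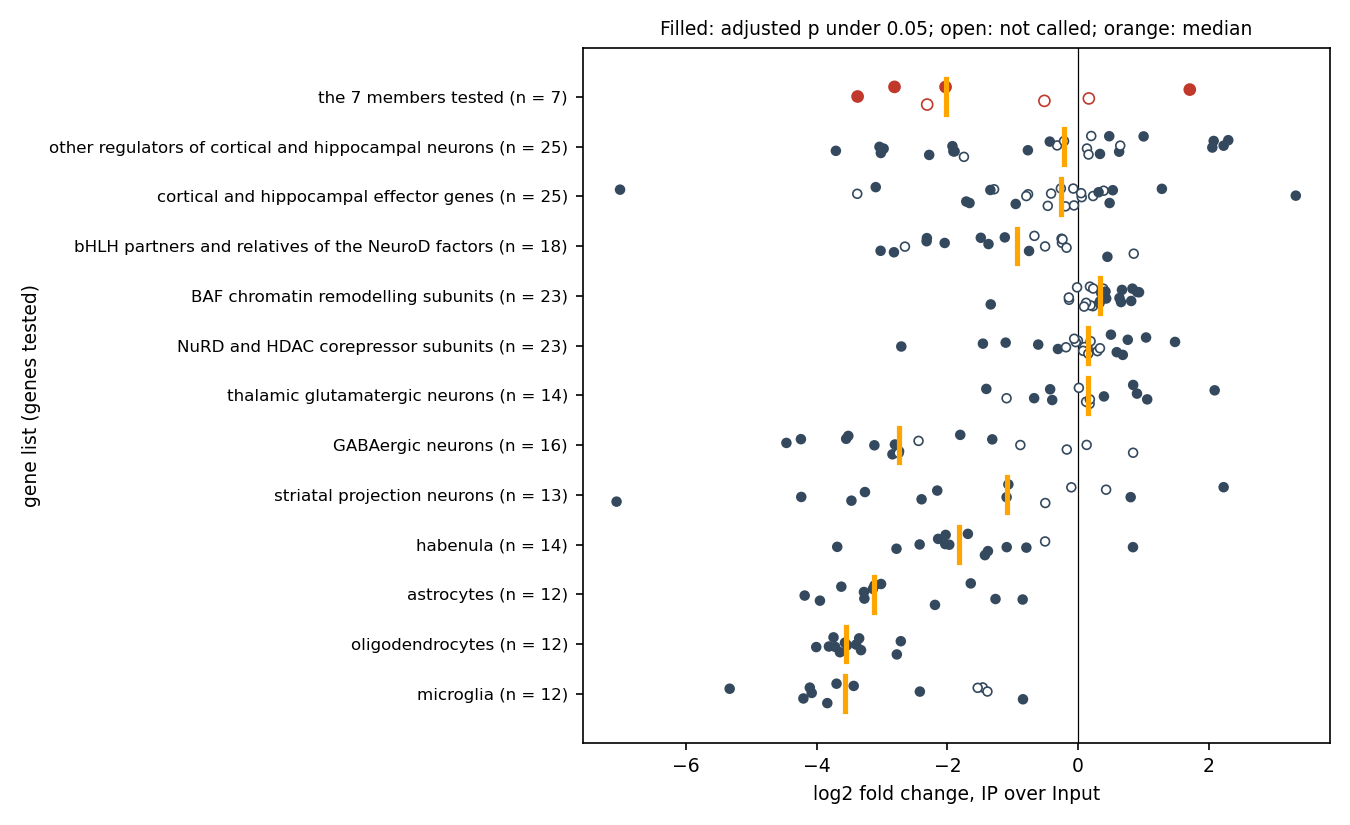
Log2 fold change of IP over Input (x axis) for the genes tested of each list (rows, with their number), with filled points for an adjusted p under 0.05, open points for genes not called and an orange bar at the median. The 7 cortical and hippocampal regulators tested (top row, red) spread from -3.37 to 1.71, and all astrocyte and oligodendrocyte markers lie below 0.

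Markers of other cells that use these factors moved in the same libraries. The counts below stand beside 24.3% of all tested genes called lower and 23.3% called higher. Of 16 GABAergic markers tested, 10 fell and none rose (median -2.74), and their summed level was 166 to 208 CPM in IP and 733 to 977 CPM in Input. With edgeR at an unadjusted p under 0.05, 1 was higher (Sp9, a factor of interneuron precursors, named after its values were seen, adjusted p = 0.0525), and 1 of the list was called higher by DESeq2, by limma-voom, with no filter, with the replicate block, and without IP replicate 2 or Input replicate 1. Of 13 striatal genes tested, 8 fell and 2 rose (median -1.09), and the receptor Drd1, used in the striatal cells that make Bcl11b, was at 0.103 ± 0.103 CPM in IP and 1.98 ± 0.423 CPM in Input. The striatal list's summed level was 798 to 927 CPM in IP and 315 to 355 CPM in Input. Foxp1 made up most of it in IP (594 to 736 CPM) and a smaller part in Input (123 to 147.5 CPM). Pde10a, which also rose (log2 fold change 0.80, adjusted p = 4.97e-04), had 139 to 159 CPM in IP and 72.3 to 93.3 CPM in Input. In the habenula, a neighbour of the thalamus, 12 of 14 markers fell and 1 rose, with 7 lower without replicate 2 or 3 (median -1.83, summed level 242 to 369 CPM in IP and 436 to 500 CPM in Input). The part of these cells in the member values was not tested.

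Pineal, granule cell and blood cell lists held genes at 0 beside genes with clear levels. Their counts of calls stand beside 24.3% lower and 23.3% higher over all tested genes. Of 12 pineal genes 7 were tested, 4 fell and none rose (with edgeR, 0 higher also at an unadjusted p under 0.05, and 0 in DESeq2 and limma-voom), and 5 were at 0 counts in all IP libraries. The pineal list summed to 135 to 152 CPM in IP and 261 to 302 CPM in Input. Most of that sum was Mat2a (124 to 145 CPM in IP and 221 to 254 CPM in Input). The melatonin enzyme gene Asmt was at or below 0.0218 CPM in every library, while the homeobox gene Otx2 had 1.07 to 2.44 CPM in IP and 16.6 to 20.6 CPM in Input and the serotonin enzyme gene Tph1 had 0, 1.48 and 0.259 CPM in IP and 1.88, 3.43 and 0.803 CPM in Input. The granule cell receptor gene Gabra6 was at 0 in all IP libraries and at most 0.115 CPM in Input. Of 8 granule cell genes tested 3 fell and 3 rose (1 without replicate 3). The summed level of the granule cell list was 397 to 561 CPM in IP and 333 to 340 CPM in Input. Etv1 had 225 to 355 CPM of it in IP and 62.4 to 72.4 CPM in Input. The part of pineal and granule cells in the Neurod1 values was not tested. Among 14 lymphocyte genes, Cd3g and Ms4a1 were at 0 in all 6 libraries and 6 were at 0 in all IP libraries. Of 6 tested, 2 fell and 1 rose, with 1 lower call without Input replicate 1 or 3, without replicate 1 or 2 or with the replicate block and 0 with a stricter filter. The list's summed level of 844 to 870 CPM in IP and 431 to 443 CPM in Input was nearly all Thy1, which neurons also make. The pan-leukocyte gene Ptprc was at 0 in all IP libraries and at 0.689 to 1.37 CPM in Input. Asmt, Mat2a, Tph1, Gabra6, Cd3g, Ms4a1 and Ptprc were picked after their values were seen. The part of lymphocytes in the Satb1, Bcl11a and Bcl11b values was not tested.

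Glial and vascular lists were lower in IP. For these and the thalamic list below, the shares over all tested genes were 24.3% called lower and 23.3% higher. Of 12 markers each, 12 astrocyte genes (summed level 871 to 944 CPM in IP and 2588 to 2652 CPM in Input), 12 oligodendrocyte genes (361 to 450 CPM in IP and 3983 to 4587 CPM in Input) and 9 microglial genes (11.1 to 11.8 CPM in IP and 59.4 to 70.2 CPM in Input) fell and none rose (with edgeR, 0 higher also at an unadjusted p under 0.05, and 0 in DESeq2 and limma-voom). Of 12 endothelial and mural genes, 8 fell and 1 rose, with 5 lower without Input replicate 1 or 2, without replicate 2 or with a stricter filter and 0 higher without Input replicate 3, without replicate 2 or 3 or with library totals (9.63 to 13.7 CPM in IP and 29.4 to 39.0 CPM in Input). Their part in the member values was not tested. The 14 thalamic glutamatergic genes moved both ways: 4 fell and 5 rose (median 0.15). Foxp2 rose most (565 ± 142 CPM in IP and 133 ± 2.60 CPM in Input, log2 fold change 2.09, adjusted p = 1.25e-05). Zic4 fell most (16.8 ± 5.60 CPM in IP and 44.5 ± 9.93 CPM in Input, log2 fold change -1.40, adjusted p = 0.00159), and Ntng1 fell too (-0.67). Tcf7l2 rose (0.84) and Gbx2 was not called (-1.09, adjusted p = 0.325), both picked after their values were seen. The log2 fold change of Bcl11a lay between those of Slc17a6 (1.06) and Foxp2, in a list that also held lower genes.

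The genes whose level ran most closely with that of each factor over the 6 libraries were sought by Pearson's r of log2 CPM. This is a description, among 13906 candidates averaging 1 CPM or more, and r does not measure the size of a change. Bcl11a was matched most closely, by Slc25a14 and Plekhm3 (r = 0.999 each), both also higher in IP (56.6 and 140 CPM in IP, 28.7 and 73.1 CPM in Input). Neurod2 was followed by the chemokine gene Cxcl12 and by AK171899 (r = 0.998 each), and Bcl11b by Ccdc81 (r = 0.998) and Fam181b (r = 0.997). For Neurod6 the nearest were Slc25a23 (r = 0.993) and Tbce (r = 0.992), for Tbr1 Kdm2a (r = 0.990) and Tiam1 (r = 0.988), for Satb1 Cct2 (r = 0.991) and Cep41 (r = 0.984), and for Neurod1 Ccdc15 (r = 0.969) and Kdm5d (r = 0.968). The sizes could differ widely. Slc25a23 was at 558 CPM in IP and 665 CPM in Input, and Kdm2a at 137 and 147 CPM, while Cxcl12 was at 0.271 and 3.76 CPM. These values rest on 6 libraries in 2 groups.

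Among the factors themselves the log2 levels over the 6 libraries ran with r = 0.927 between Neurod2 and Bcl11b, 0.891 between Tbr1 and Bcl11b, 0.845 between Tbr1 and Neurod6, and 0.484 between Neurod2 and Neurod6. Bcl11a ran against Neurod2 (r = -0.940) and Bcl11b (r = -0.905). These values share the same 6 libraries and include the difference between IP and Input.

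All 8 genes are protein-coding in GENCODE M21 (mm10). Neurod6 lies on chromosome 6 at 55677822 to 55681263 (minus strand), Neurod2 on chromosome 11 at 98325415 to 98329648 (minus) and Neurod1 on chromosome 2 at 79452521 to 79456751 (minus). Tbr1 lies on chromosome 2 at 61802930 to 61814114 (plus), Satb1 on chromosome 17 at 51736187 to 51833290 (minus) and Fezf2 on chromosome 14 at 12342094 to 12348189 (minus). Bcl11a lies on chromosome 11 at 24078056 to 24174123 (plus) and Bcl11b on chromosome 12 at 107910403 to 108003602 (minus). Of these, 5 overlap no other annotated gene. Satb1 shares 284 exonic bases with overlapping genes and Bcl11a 316, but none of those genes is in the files, and without strand information such reads cannot be told apart.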

How the data were processed

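The deposited values were raw counts of RNA-seq reads in genes, 1 file for each of the 3 IP and 3 Input libraries. STAR 2.0.0e, mm10 and HTSeq are named in the submitters' processing notes, and the HTSeq version, strand setting and annotation are not given in the sources used here. Lines tied to no gene (closing HTSeq lines and one named unknown) were left out. Reads not uniquely aligned made up 43.2 to 49.7% of all lines in IP and 32.7 to 34.0% in Input, reads outside features 8.44 to 9.39% in IP and 14.8 to 15.9% in Input, and ambiguous reads 1.32 to 1.58% in IP and 5.47 to 6.60% in Input. Rn45s took 9.38 to 14.5% of assigned counts in IP and 5.21 to 5.40% in Input and was kept. Genes differed between replicates by more than sampling noise in each pair (chi-square per degree of freedom 11.8 to 134), so each library counted as 1 sample.

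IP was compared with Input over all genes in R 4.3.3 with edgeR 4.0.16 (filterByExpr, minimum count 10, TMM, robust quasi-likelihood F-test, Benjamini-Hochberg adjustment, threshold 0.05). SE comes from the F statistic. Every adjusted p of a gene is from this test unless another is named. The fit was also run on simulated counts with 200 changed genes. Their means and spread were taken from Input, so they do not show how the test performs at the wider spread of IP. The alternatives were upper-quartile factors, library totals, DESeq2 1.42.0, limma 3.58.1 (voom), no filter, a stricter filter (1 CPM in at least 3 libraries and 10 counts in every library of 1 group), Rn45s left out, the replicate block, and each library or replicate number left out. Labels give same-numbered IP and Input libraries 1 shared lane (1, 5 and 6), so the number was also fitted as a block. Deviations from group means correlated weakly within numbers (0.06, 0.04 and 0.01 for numbers 1 to 3).

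The 8 genes and all gene lists were chosen with earlier results of these data known. The rule for named list genes took at most the 2 lowest and 2 highest called log2 fold changes at a mean of at least 1 CPM. Further list genes are named where stated as picked later. No untagged control was analysed here, and some genes are not reported here.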

Additional observations from a re-analysis of the deposited data

How the results depend on the processing

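Bcl11a, Neurod2 and Bcl11b kept direction and call in all 17 alternatives. Neurod6 was called lower in 5 of 17 (DESeq2, limma-voom, the replicate block, without IP replicate 1, without replicate 1), and Tbr1 lost its call in 7 of the 16 that tested it, including without replicate 1, 2 or 3 (adjusted p = 0.0613, 0.187 and 0.0552). With the replicate number as a block, Neurod6 had -3.18 and Tbr1 -2.73, and no other call of the 8 genes changed. Of the 8 genes, 2 to 4 were called lower and 1 higher in every alternative. Satb1 changed sign with upper-quartile factors (-0.0143) and library totals (-0.0688). Leaving out libraries gave -0.0074 (without IP replicate 3) to 0.28, with -0.0010 without replicate 3.

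Over all genes, library totals called 2464 higher (3930 under TMM). The higher share of all calls was 48.9% under TMM, 36.7% with upper-quartile factors and 32% with library totals. Leaving out 1 library moved the log2 difference of Neurod6 over Neurod2 between -1.53 and 1.75, of Tbr1 over Fezf2 between -3.53 and 0.40, and of Bcl11b over Fezf2 between -3.19 and 0.61. The causes were not tested. No library held more than 157 counts of Fezf2, Tbr1 or Neurod6.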
